A study of Xenopus laevis with 14 samples.

Results

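The genes sst, which encodes the precursor of somatostatin, and vip, which encodes the precursor of vasoactive intestinal peptide, are 2 of the 19921 genes in an RNA-seq table of Xenopus laevis animal caps. They were taken by their symbols, and they were chosen by their measured levels in these same 10 libraries. The values below that chose them are therefore a description and carry no test. Animal caps are pieces of early embryonic ectoderm that form epidermis when cultured alone and neural tissue when BMP signalling is blocked. RNA was measured in 10 poly-A libraries, 2 for each of 5 groups, from embryos injected with RNA at the 2-cell stage and caps cut at about stage 10. Wild-type caps had no treatment. The other 4 groups all received noggin RNA, which encodes a BMP inhibitor, and retinoic acid, which posteriorizes neural tissue. One of these 4 groups received nothing more and is called noggin and RA here. The other 3 also received RNA for prdm12, for prdm12_VP16 or for prdm12_engR. The protein Prdm12 is a zinc-finger regulator found in p1 progenitors, which form inhibitory interneurons of the spinal cord, VP16 is a viral activation domain, and engR is the engrailed repressor domain. The design asks how the unmodified factor and its activating and repressing fusions change the genes of neuralized caps. The injected RNAs act in whichever cells of the cap inherit them, and each library holds RNA of a whole tissue, so fewer cells of a type and less RNA per cell cannot be told apart.

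Somatostatin is a peptide that inhibits hormone release and neuronal firing. It is made by subsets of inhibitory neurons, by cerebrospinal fluid-contacting neurons of the spinal cord and by endocrine cells of the pancreas and gut, and it acts through receptors that couple to inhibitory G proteins. Vasoactive intestinal peptide is a relative of glucagon and PACAP made by autonomic, enteric and cortical neurons, and its receptors raise cyclic AMP. Both peptides are cut from longer precursors by prohormone convertases and are stored in dense-core vesicles.

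Each library held between 11986697 and 15893668 reads on genes. The wild-type libraries stood apart, with a summed epidermal marker level of 926147 and 844109 normalized reads against 23906.6 to 65916.3 in the 8 neuralized libraries. The normalized read count of prdm12 was 29.27 and 77.8 with noggin and RA. It was 159.81 and 208.98 in the prdm12 libraries, 378.78 and 250.35 in the VP16 libraries and 261.74 and 159.71 in the engR libraries. None of these differences from noggin and RA was called (limma adjusted p = 0.699, 0.530 and 0.230). The level was higher with every construct, so it does not tell which construct a library received. Whether this line counted the injected RNA, the embryo's own prdm12 or both was not tested. Replicate 1 of engR is named engR in its title and VP16 in its treatment. The V1 interneuron gene en1 stood at 268 in that library and at 263.78 in replicate 2 of engR, against 1.15 and 1.96 in the VP16 libraries. The sst and vip differences of engR from noggin and RA are also given without it. When it was left out, 4 of all genes (0.031%) were called between engR and noggin and RA, and 0 of them were in a gene list described below, so the calls of list genes in that comparison rest on both engR libraries.

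The gene sst (ENSXETG00000019777, GL172717.1:2228041-2229578 in the table's Xenopus tropicalis gene models) was highest with engR. It stood at 4776.05 and 2025.72 normalized reads in the 2 engR libraries. Caps with prdm12 held 271.59 and 91.69, and wild-type caps held 210.42 and 53.62. The libraries of these last 2 groups overlapped. Noggin and RA alone gave 10.57 and 9.20, and VP16 gave 6.91 and 4.91. From low to high, the order was therefore VP16, noggin and RA, then wild type and prdm12 without separation, then engR. The gap between VP16 and noggin and RA rested on 11 and 24 recovered reads.

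The engR mean was 3401 ± 1945 (SD, n = 2) and the noggin and RA mean 9.88 ± 0.969 (SD, n = 2). On the log2(normalized reads + 1) scale the difference was 8.16 (SE 0.76), the largest higher value among the 12937 genes tested in that comparison. Without replicate 1 of engR it was 7.54. In that comparison 3.43% of all genes were called at an adjusted p of 0.05, and nothing is read from that share for sst. The ratio of the pooled reads of the 2 groups, adjusted for depth, was 343, with a 95% counting interval of 230 to 535. All ratios given with a counting interval are of this pooled kind, and the interval does not cover the spread between libraries. Within the replicate numbers the ratio was 452 for replicate 1 and 220 for replicate 2.

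With prdm12, sst had a mean of 182 ± 127 (SD, n = 2), a log2 difference of 3.87 (SE 0.76) from noggin and RA and a ratio of 17.8 (95% counting interval 11.8 to 28.2). The ratio was 25.7 in replicate 1 and 9.97 in replicate 2. With VP16 the ratio to noggin and RA was 0.589 (0.26 to 1.25), an interval that holds equality. In pooled reads adjusted for depth, engR was 19.2 times prdm12 (17.4 to 21.3) and 582 times VP16 (325 to 1170). Within replicate 2 alone these ratios were 22.1 and 413. The activating and repressing fusions thus held the lowest and highest sst levels, and unmodified prdm12 lay between them. Noggin and RA alone lay next to VP16, and the counting interval of their ratio held equality.

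Wild-type caps, which form epidermis, held 132 ± 111 (SD, n = 2) normalized reads of sst. Their pooled reads, adjusted for depth, were 12.6 times those of noggin and RA (8.23 to 20.1). In that comparison 43.7% of all genes were called. That difference moved with the wild-type library used. The log2 difference of noggin and RA from wild type was -3.31 over both, -2.33 without wild-type replicate 1 and -4.28 without wild-type replicate 2. Replicate 1 was higher than replicate 2 in all 5 groups, by 3.92 times in wild type, 1.15 times with noggin and RA, 2.96 times for prdm12, 1.41 times for VP16 and 2.36 times for engR. What a replicate number stands for is not stated in the labels.

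The gene vip (ENSXETG00000027906, GL172842.1:1006671-1014587 in the same gene models) had a different order. Noggin and RA alone gave the highest values, 343.91 and 238.42 normalized reads. VP16 gave 21.87 and 75.60, and engR gave 25.03 and 37.09. These 2 groups overlapped. Caps with prdm12 held 12.93 and 9.91. Wild-type caps held 2.65 and 1.09, which are 2 reads and 1 read. From low to high, the order was wild type, prdm12, then engR and VP16 without separation, then noggin and RA.

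The noggin and RA mean of vip was 291 ± 74.6 (SD, n = 2). Its pooled reads, adjusted for depth, were 162 times those of wild type, with a 95% counting interval of 55.4 to 790. All 3 constructs gave lower levels in both libraries. With prdm12 the mean was 11.4 ± 2.14 (SD, n = 2), a log2 difference of -4.54 (SE 0.64) from noggin and RA, the second largest lower value among all genes tested. In pooled reads noggin and RA was 25.7 times prdm12 (17.4 to 39.7), and 26.6 and 24.1 times within the replicate numbers. It was 9.39 times engR in pooled reads (7.21 to 12.4), with a log2 difference of -3.19 (SE 0.64) that was -2.92 without replicate 1 of engR.

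With VP16 the vip libraries were unequal. The noggin and RA level was 15.7 times VP16 in replicate 1 and 3.15 times in replicate 2. The log2 difference was -2.78 (SE 0.64) over both, -3.65 without VP16 replicate 2 and -1.91 without VP16 replicate 1. The summed level of 19 pan-neuronal genes also differed between these 2 libraries, at 14107.1 and 47984.1 normalized reads, and its part in the vip values was not tested. In the comparison of prdm12 with noggin and RA 0.162% of all genes were called, and in that of VP16 with noggin and RA 0% were. The 3 comparisons share the noggin and RA libraries, so the lower vip levels in them are not independent of each other.

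**Figure D1:**
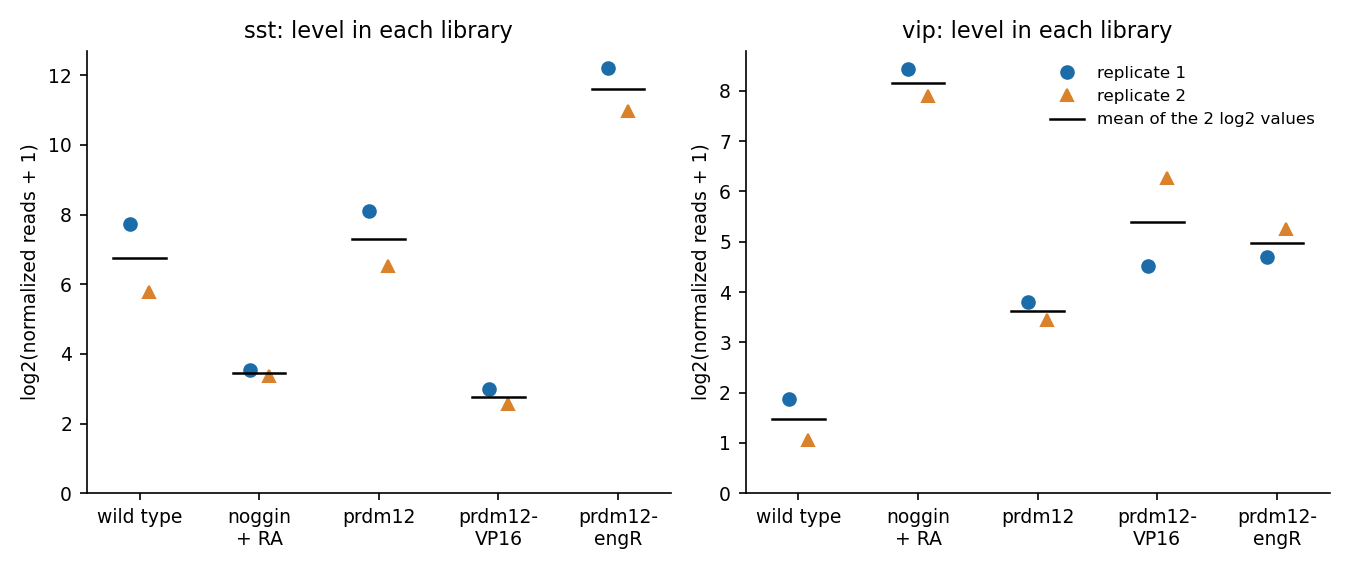
Level of sst (left) and vip (right) in each of the 10 libraries, as log2(normalized reads + 1) on the vertical axis, by group; circles are replicate 1, triangles replicate 2 and bars the mean of the 2 log2 values. The highest sst values, 4776.05 and 2025.72 normalized reads, are in the engR libraries, and the highest vip values, 343.91 and 238.42, in the noggin and RA libraries.

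The 2 genes did not run together. Their log2 levels had a Pearson correlation of -0.36 over the 10 libraries and -0.49 over the 8 neuralized ones, as a description of libraries that share groups. With prdm12 and with engR, sst was higher and vip lower than with noggin and RA. With VP16 both genes were lower in each library than with noggin and RA. For sst this rested on 11 reads against 24, and its counting interval held equality. The Xenopus laevis RefSeq annotation (Xenopus_laevis_v10.1) holds the homeologous copies sst.1.L and sst.1.S, and vip.L and vip.S. It was not searched for further copies of either gene. The table uses Xenopus tropicalis gene models, so reads of homeologous copies were taken to share 1 line. A second line named SST (ENSXETG00000014247), annotated as a somatostatin precursor, held 4 and 3 recovered reads in the engR libraries and 0 in each of the other 8. How reads were divided between these lines is not known here.

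No tested neighbour of either gene was called between a construct and noggin and RA. Of all genes, 0.162% were called with prdm12, 0% with VP16 and 3.43% with engR, so nothing is read from that absence. The 3 nearest genes on each side of sst on its scaffold are tprg1, lpp and bcl6 on one side and masp1, an unnamed gene and RTP3 on the other. The unnamed gene and RTP3 were at 0 in every library. The repressor gene bcl6, 41117 bp from sst, held 840.5 and 878.91 normalized reads with engR against 625.22 and 496.92 with noggin and RA, a log2 difference of 0.62 (limma adjusted p = 0.181). Against wild type, noggin and RA lowered tprg1 by a log2 difference of -6.52 (limma adjusted p = 0.000221). The same treatment raised bcl6 by 1.43 (limma adjusted p = 0.000823), while the sst level was lower. In that comparison 43.7% of all genes were called. Around vip stood esr1, syne1 and MYCT1 on one side and fbxo5, mtrf1l and ccdc75 on the other, and the 4 of these that passed the filter were not called in any of the 7 comparisons. The other 2, esr1 and MYCT1, were below the filter and were not tested, and MYCT1 held 8.34 and 13.39 normalized reads with engR against 1.63 and 5.02 with noggin and RA. In the Xenopus laevis annotation bcl6.L and bcl6.S also adjoin sst.1.L and sst.1.S, and fbxo5 and myct1 flank both vip.L and vip.S. Another precursor gene, UTS2B, which encodes a urotensin II-related peptide, lay on the scaffold of sst at 1487711 bp with 10 genes between. It ran unlike sst, at 303.26 and 1176.21 with noggin and RA and at 41.71 and 162.8 with engR.

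The genes most like sst were sought among 12101 genes by Pearson correlation of log2 levels. Over the 10 libraries they were cldn16, a tight-junction claudin (0.988), slc5a10, a sodium-dependent sugar transporter (0.972), XB-GENE-5953481, annotated as a hypothetical protein (0.971), MGC108117 (0.965) and prkag1, a subunit of AMP-activated kinase (0.960). The level of cldn16 was 104.28 and 43.28 with engR, 14.78 and 4.13 with prdm12, 14.56 and 4.38 in wild type, and at most 1.63 in the noggin and RA and VP16 libraries. It was thus low and high in the same groups as sst.

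Within the 8 neuralized libraries the 5 genes were cldn16 (0.989), the annexin anxa4 (0.988), the lysosomal thiol reductase ifi30 (0.987), prkar1a, a regulatory subunit of the cyclic AMP-dependent kinase (0.986) and the calcium-binding protein gene efhd1 (0.984). Of these, anxa4 held 15422.1 and 13659.7 with engR, 6042.47 and 5525.06 with prdm12 and 1603.3 and 1627.96 with noggin and RA. On the log2 scale it was 3.17 higher with engR and 1.84 higher with prdm12 than with noggin and RA. The genes were chosen by their likeness to sst in the same libraries. Such rises are therefore part of the choice and carry no test. Ranking by Spearman correlation over the 10 libraries gave 5 other genes, noxa1, PIEZO2, mab21l1, itgb8 and id4, so the names depend on the measure.

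The genes most like vip included chat and nkx6-1, and their correlations were lower than those for sst. Over the 10 libraries they were chat, which encodes the enzyme that makes acetylcholine (0.916), wdr59, a part of an amino acid-sensing complex (0.914), the solute carrier slc35f4 (0.910), nkx6-1, a homeobox gene of ventral progenitors and motor neurons (0.902), and stac (0.896). The level of chat was 34.96 and 44.34 with noggin and RA, 0.92 and 0.83 with prdm12, 4.61 and 43.2 with VP16, 7.3 and 31.94 with engR and 0 in both wild-type libraries. It was thus highest with noggin and RA and lowest, among the neuralized groups, with prdm12, as vip was, though replicate 2 of VP16 reached the noggin and RA range. The level of nkx6-1 was 426.03 and 291.13 with noggin and RA, 14.78 and 23.13 with prdm12 and 105.32 and 64.91 with engR. It departed from vip with VP16, where it held 249.84 and 481.07. With prdm12, nkx6-1 was lower than with noggin and RA by 4.18 on the log2 scale, and the chat difference was -4.43. These 5 genes were chosen by their likeness to vip in the same libraries. Their lower levels with prdm12 are therefore part of the choice and carry no test.

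Within the 8 neuralized libraries the list for vip was kcnf1, a potassium channel subunit (0.957), c17orf105 (0.907), neurog2, a proneural factor (0.876), gfra1, a GDNF co-receptor (0.873) and the axon guidance gene NTN1 (0.873). By Spearman correlation over the 10 libraries 2 of the first 5 genes were shared.

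**Figure D2:**
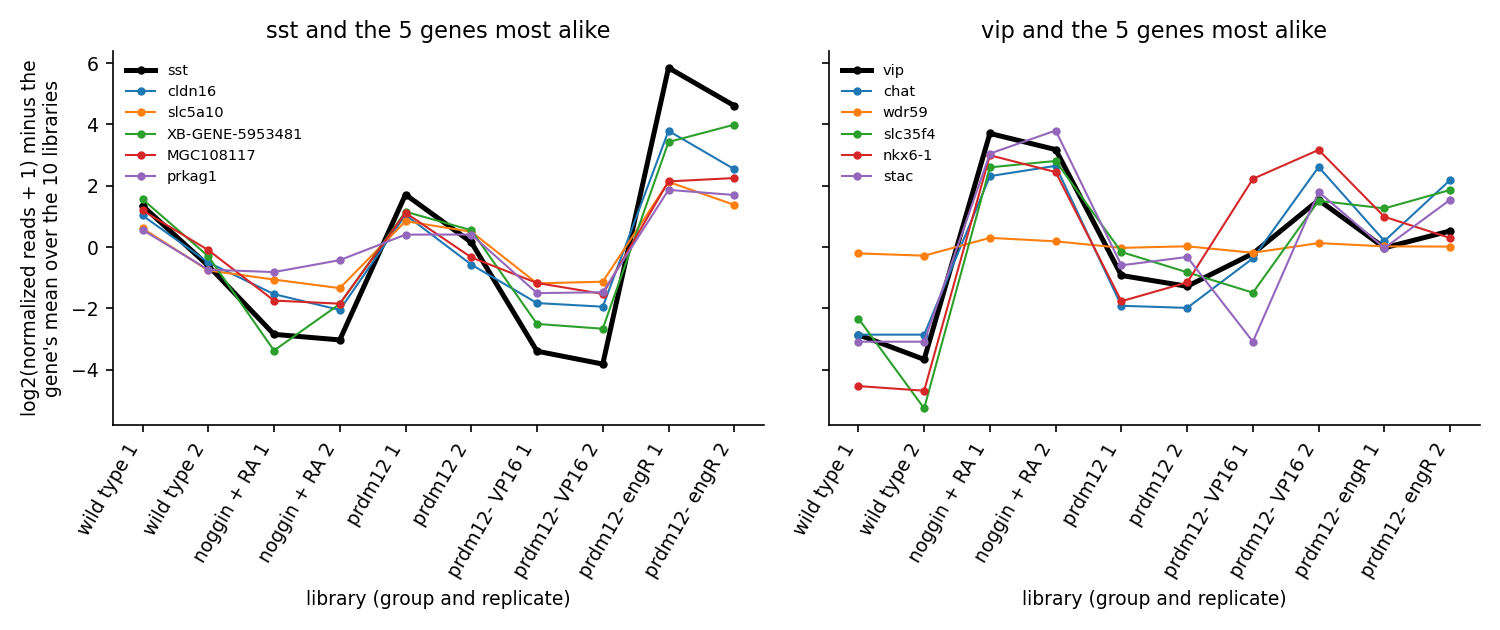
Log2(normalized reads + 1) minus each gene's mean over the 10 libraries, by library, for sst with its 5 most alike genes (left) and vip with its 5 (right); the black line is sst or vip. The sst genes share peaks in the engR libraries, and the vip genes share high values with noggin and RA but spread apart with VP16.

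Among the other neuropeptide precursor genes, penk and avp rose with engR. The list held 65 symbols, 33 of which had a line in the table, and 14 passed the filter of a mean of at least 10 normalized reads. The filter keeps genes that are high in at least 1 group, so the counts are not those of all 65. Noggin and RA raised 7 of the 14 against wild type and lowered 0, where 22.3% of all genes were called higher and 21.4% lower. The 7 were penk, avp, adcyap1, tac1, CARTPT, PDYN and UTS2B. The enkephalin precursor penk went from 9.01 ± 0.361 to 338 ± 34.8 normalized reads (SD, n = 2 each), a log2 difference of 5.08 (limma adjusted p = 1.94e-05). The substance P precursor tac1 rose from 2.65 and 4.38 to 262.61 and 725.3 (log2 difference 6.63, limma adjusted p = 0.00493).

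With prdm12, 1 of the 14 precursors was called against noggin and RA, where 0.147% of all genes were called higher and 0.0155% lower. It was penk, at 3441.09 and 2668.78 normalized reads with prdm12 against 313.02 and 362.23 with noggin and RA, so the groups were far apart. The log2 difference was 3.17 ± 0.34 (SE), with a limma adjusted p of 0.0197. The call went to 0 when any 1 library of wild type, noggin and RA, prdm12 or engR was left out.

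With engR, 2 of the 14 were called higher and 0 lower, where 2.41% of all genes were called higher and 1.02% lower. The gene penk held 2186.77 and 2975.73 with engR (log2 difference 2.92 ± 0.34 SE, limma adjusted p = 0.00797). The vasotocin precursor avp held 216.9 and 125.71 with engR against 13.82 and 17.57 with noggin and RA (3.32 ± 0.56 SE, limma adjusted p = 0.0214). With the replicate number as a block 6 were called, the others being pyy, trh, nppb and adcyap1, where 10.9% of all genes were called. The count went to 0 without any 1 of the 4 noggin and RA and engR libraries. The median log2 difference of the 14 was 2.57 with engR against 0.03 over all genes.

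Some precursors that were not called without the replicate block had values like those of sst. The thyrotropin-releasing hormone precursor trh held 132.44 and 34 normalized reads with engR, 97 and 12.39 with prdm12, and at most 3.45 with noggin and RA or VP16 (limma adjusted p = 0.105 for engR and 0.568 for prdm12). The peptide YY precursor pyy held 183.53 and 57.7 with engR against 17.89 and 3.35 with noggin and RA (limma adjusted p = 0.14). In both genes replicate 1 exceeded replicate 2 in the engR and prdm12 groups, as in sst. With the replicate number as a block both were called with engR, where 10.9% of all genes were called. CARTPT and UTS2B resembled vip in part. CARTPT held 12.01 and 7.43 with prdm12 against 37.4 and 245.11 with noggin and RA, but 73 and 384.33 with engR (limma adjusted p = 0.726 and 0.866).

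With VP16 against noggin and RA, DESeq2 called 1 of the 14 and 127 of all genes. At an unadjusted limma p under 0.05 there were 4 of the 14, and 868 of the 12937 genes tested. By limma or edgeR 0 of the 14 were called, where 0% of all genes were called. Without VP16 replicate 2 there were 2 calls. With the replicate number as a block penk was called lower (-2.27, limma adjusted p = 0.0378), where 0.34% of all genes were called. Between the fusions, engR exceeded VP16 in 5 of the 14 precursors, penk, avp, pyy, trh and adcyap1, and 0 were lower, where 8.7% of all genes were called higher and 3.42% lower. Without replicate 1 of engR the calls were penk and avp, where 3.64% of all genes were called. The block raised this count to 8, adding nppb, tac1 and CARTPT, where 29.1% of all genes were called. VP16 was below prdm12 in 1, penk, by -5.43 (limma adjusted p = 0.00132), where 3.86% of all genes were called, 0.758% higher and 3.11% lower. The block raised this to 3, with pyy and trh, where 16.4% of all genes were called. Between engR and prdm12, 0 of the 14 were called by limma or edgeR, where 0% of all genes were called. DESeq2 called 2 of the 14 and 179 of all genes. With the block 1 was called (avp), where 0.1% of all genes were called. At an unadjusted limma p under 0.05 there were 3 of the 14, and 679 of the 12937 genes tested.

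**Figure D3:**
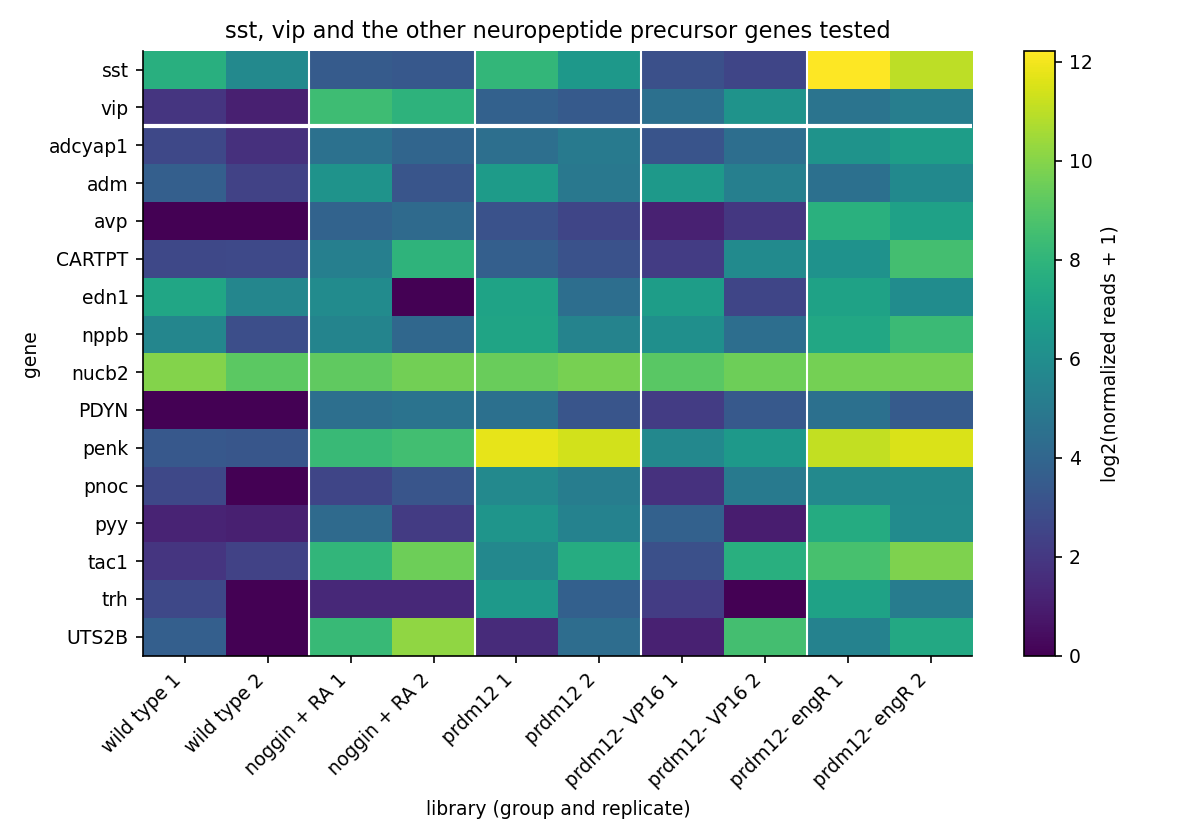
Heat map of log2(normalized reads + 1) for sst and vip (top 2 rows, above the white line) and the 14 other neuropeptide precursor genes tested, by library; brighter cells are higher levels. The penk row is bright in the prdm12 and engR libraries, with 2186.77 to 3441.09 normalized reads, and avp is highest with engR at 216.9 and 125.71.

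Most of the tested genes that cut and store neuropeptides were called with neuralization, in both directions. Of 25 symbols for peptide processing and dense-core vesicles, 21 had a line and all 21 passed the filter. Noggin and RA raised 12 and lowered 4 against wild type, where 22.3% of all genes were called higher and 21.4% lower. Among those raised were pcsk2, a prohormone convertase (13.3 ± 7.54 to 1001 ± 556 normalized reads, SD, n = 2 each, limma adjusted p = 0.00123), scg5, its chaperone (44.2 ± 16.1 to 3102 ± 969, limma adjusted p = 2.44e-05), and the vesicle priming factor cadps (32.1 ± 4.17 to 3304 ± 1019, limma adjusted p = 2.54e-05). Those lowered were sytl4, syt7, furin and rab3d, of which furin encodes a convertase of the constitutive pathway (860 ± 441 to 175 ± 29.8, limma adjusted p = 0.00251).

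No processing gene was called between a construct and noggin and RA by limma or edgeR. Of all genes, limma called 0.162% with prdm12, 0% with VP16 and 3.43% with engR. At an unadjusted p under 0.05 there were 3 of 21 with prdm12, 8 with VP16 and 7 with engR. Of the 12937 genes tested, 828, 868 and 1983 were under it. DESeq2 called 1, 0 and 3 processing genes, and 250, 127 and 1169 of all genes. With the replicate number as a block 6 were called with engR, where 10.9% of all genes were called. The 6 were pcsk2, rph3a, qpct, furin, scg3 and chgb. Leaving out VP16 replicate 2 gave 5 calls with VP16. Leaving out either VP16 library gave 1 call with engR. The level of pcsk2 was 4402.73 and 6661.4 with engR, 2655.88 and 4337.28 with prdm12, 608.15 and 1394.56 with noggin and RA and 46.05 and 478.12 with VP16. Those values put the engR and prdm12 libraries above and the VP16 libraries below noggin and RA. Between engR and VP16, 12 of the 21 were called higher with engR, where 8.7% of all genes were called higher. The block gave 19 calls, where 29.1% of all genes were called, and leaving out replicate 1 of engR gave 1, syt7, where 3.64% were called. VP16 was below prdm12 in 4, where 3.11% of all genes were called lower, and the block gave 12 calls, where 16.4% were called. The summed pan-neuronal level moved the same way, at 118414 and 141052 with engR, 93919.2 and 131258 with prdm12, 55234.2 and 89484.2 with noggin and RA and 14107.1 and 47984.1 with VP16, and its part in these counts was not tested. That sum did not order the groups as vip did, since vip was highest with noggin and RA. Within each replicate number it ordered the neuralized groups as sst did, from VP16 up to engR. In wild type it was lowest, at 3562.53 and 2568.12, where sst was not. The part of the sum in the sst level was not tested.

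The receptors for the 2 peptides gave no call between a construct and noggin and RA by limma, edgeR or DESeq2. The list held 8 symbols, including the PACAP receptor gene adcyap1r1, all with a line, of which 5 passed the filter. At an unadjusted p under 0.05 there were 2 with prdm12, 1 with VP16 and 1 with engR. Of the 12937 genes tested, 828, 868 and 1983 were under it. Of all genes, limma called 0.162%, 0% and 3.43% in these comparisons, and DESeq2 called 250, 127 and 1169. Between noggin and RA and wild type, 2 of the 5 were called higher and 1 lower, where 22.3% of all genes were called higher and 21.4% lower. Noggin and RA changed 2 somatostatin receptors in opposite directions in that comparison. It raised sstr2 from 2.85 ± 2.16 to 288 ± 140 normalized reads (SD, n = 2 each, limma adjusted p = 0.00265). It lowered sstr5 from 346 ± 101 to 2.49 ± 1.22 (limma adjusted p = 0.000157). The PACAP receptor gene adcyap1r1 rose from 1.21 ± 0.163 to 92.8 ± 37.8 (limma adjusted p = 4.32e-05).

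The VIP receptor gene vipr1 held 13.01 and 15.89 with noggin and RA, 43.42 and 89.21 with prdm12 and 60.48 and 52.55 with engR. In the VP16 libraries it held 4.61 and 20.62. It was higher with prdm12 and engR, where vip was lower, without passing the test (limma adjusted p = 0.592 and 0.244). SSTR4 was uneven between replicates, at 4.88 and 40.99 with noggin and RA and 15.64 and 83.46 with engR. SSTR1, sstr3 and VIPR2 did not reach the filter, and VIPR2 never exceeded 2.51 normalized reads. Of 24 tested genes of the cyclic AMP pathway, 0 were called between a construct and noggin and RA by limma or edgeR, against 1 with prdm12, 1 with VP16 and 4 with engR at an unadjusted p under 0.05. DESeq2 and the block each called 2 with engR, where DESeq2 called 1169 of all genes and the block 10.9%. The other counts are read against the same counts of all genes as for the receptors.

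**Figure D4:**
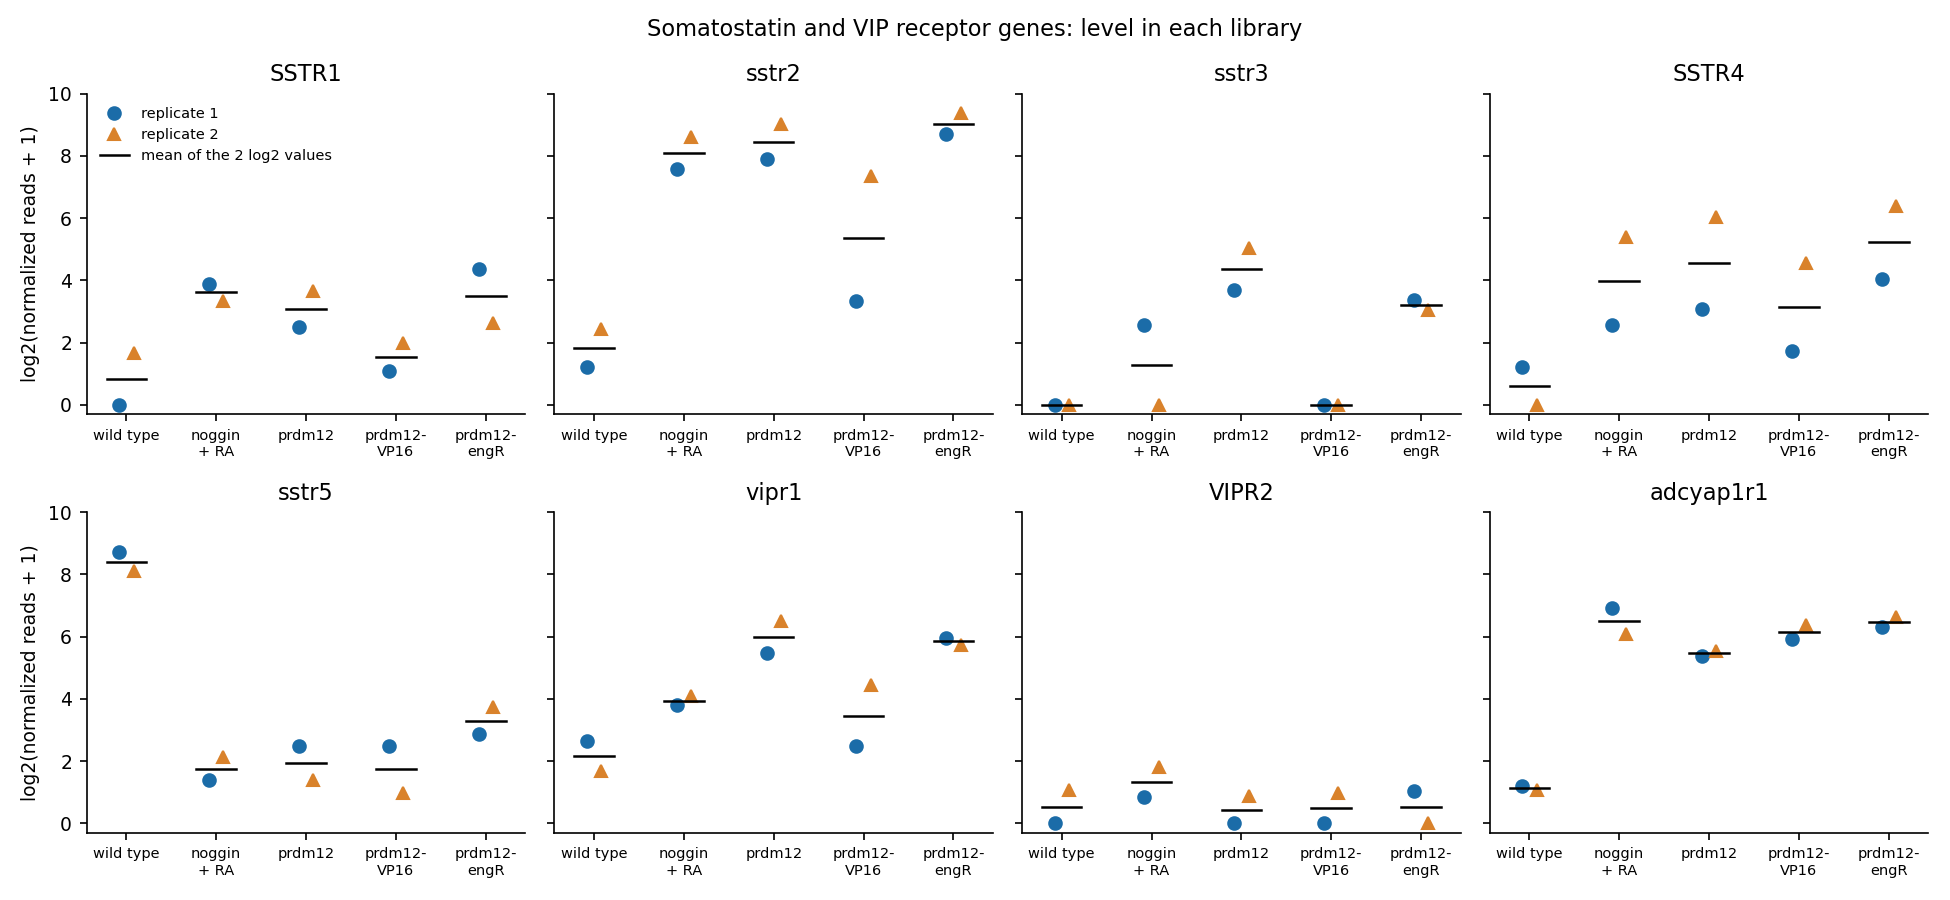
Level of the 8 listed receptor genes, for somatostatin, VIP and PACAP (adcyap1r1), in each library, as log2(normalized reads + 1), by group. Circles are replicate 1, triangles replicate 2 and bars the mean of the 2 log2 values. The sstr2 and sstr5 panels show opposite changes from wild type to noggin and RA, 2.85 to 288 and 346 to 2.49 normalized reads in the means. In that comparison 43.7% of all genes were called.

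Markers of cells known to make somatostatin were also read. Of 10 tested markers of inhibitory interneurons, prdm12 raised 3 (en1, pax2 and slc32a1) and engR raised those and pax8, where 0.147% of all genes were called higher with prdm12 and 2.41% with engR. With the block these counts were 5 and 6, where 0.935% and 10.9% of all genes were called. The vesicular transporter gene for inhibitory transmitters, slc32a1, rose from 58.1 ± 33.8 to 3916 ± 1053 with prdm12 and to 5351 ± 94.5 with engR (SD, n = 2 each, limma adjusted p = 0.0197 and 0.00368). Its prdm12 and engR levels thus differed less than those of sst. The summed inhibitory level was 16857 and 16968.3 with engR, 17534.3 and 19333.2 with prdm12, 1722.01 and 4091.65 with noggin and RA and 427.12 and 1091.73 with VP16. The median log2 difference of the 10 from noggin and RA was 2.55 with prdm12 and 2.92 with engR. The gene ptf1a did not follow, at 7.77 ± 0.665 with engR against 24.4 ± 6.91 with noggin and RA (limma adjusted p = 0.613). With prdm12 it held 41.1 ± 42.4 (SD, n = 2 each).

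Of 10 tested markers of cerebrospinal fluid-contacting neurons, prdm12 raised slc32a1, and engR raised slc32a1 and gata3, at 1600.71 and 1097.35 against 93.5 and 55.21 with noggin and RA (limma adjusted p = 0.0075). With the block 2 and 4 were called. These counts are read against the same shares of all genes. The genes slc32a1, gad1 and gad2 stand in both lists. Their defining channel gene PKD2L1 stood between 0 and 2.95 normalized reads in every library. The summed level of 11 such markers was 9600.09 and 9257.95 with engR and 10080.3 and 9028.91 with prdm12, against 563.43 and 892.61 with noggin and RA. Most of that sum came from slc32a1 and from gad1, which encodes an enzyme that makes GABA and held 4392.59 and 4027.54 with prdm12, 2125.24 and 2203.98 with engR and 21.95 and 156.44 with noggin and RA. Other members of the list followed the sum unevenly. The median log2 difference of the 10 from noggin and RA was 1.97 with prdm12 and 1.44 with engR. The neural factor gene sox1 held 94.3 ± 9.46 with engR against 257 ± 93.2 with noggin and RA (SD, n = 2 each, limma adjusted p = 0.297). The actin-bundling protein gene espn held 57.4 ± 35.4 against 122 ± 57.9 (limma adjusted p = 0.571). With prdm12 these 2 genes were not lower, at 354 ± 261 and 245 ± 167. The genes tal2 and myo3b had higher means with both constructs without being called. With prdm12, engR and noggin and RA, tal2 held 294 ± 305, 250 ± 171 and 39.1 ± 32.3. In the same order myo3b held 44.9 ± 0.474, 46.1 ± 6.21 and 14.1 ± 4.95, and tal1 held 43.9 ± 39.9, 59.8 ± 46.7 and 47 ± 42.8.

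Of 11 tested pancreatic and gut endocrine markers, 0 were called with engR by limma, against 5 at an unadjusted p under 0.05, 1 by edgeR, 4 by DESeq2 and 3 with the block, where 3.43% of all genes were called by limma and 10.9% with the block. Of the 12937 genes tested, 1983 were under that p, edgeR called 433 and DESeq2 called 1169. With prdm12 1 was called, nkx6-1, which was lower, where 0.0155% of all genes were called lower. The summed level of the list did not separate engR from noggin and RA, at 5236.98 and 3807.23 against 5888.79 and 4975.06 normalized reads. It was 5209.2 and 6007.45 with prdm12. The eye and islet factor gene pax6 was a large share of the sum and held 1803.01 and 975.77 with engR against 3652.95 and 2747.28 with noggin and RA (limma adjusted p = 0.106). The insulin gene ins held 30.24 and 5.15 normalized reads with engR and 3.25 and 6.69 with noggin and RA, and gcg, the glucagon gene, never exceeded 1.04.

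Some markers of other tissues moved with sst in some groups, and others did not. Of 9 tested endodermal markers engR raised 3, a2m, darmin and foxa2, where 2.41% of all genes were called higher. Their summed level over 10 genes was 21738.3 and 25307.2 with engR, 13213.8 and 16081.2 with prdm12, 8544.96 and 6124.51 with noggin and RA, 3303.12 and 3484.31 with VP16 and 812.56 and 941.01 in wild type. Of 20 tested epidermal lines engR raised 4, klf5, grhl2, krt12 and a second line named KRT12. The block raised that count to 9, where 10.9% of all genes were called. The summed epidermal level did not run as sst did. It was 65916.3 and 44898.4 with VP16 and 40804 and 34549.6 with engR. With prdm12 it was 31169.4 and 28584.3, against 32525.3 and 23906.6 with noggin and RA. The median log2 difference of the 20 lines did run as sst did across the constructs. Against noggin and RA it was 1.33 with engR, 0.51 with prdm12 and -0.41 with VP16. With engR, 11 of the 20 had an unadjusted limma p under 0.05, as did 1983 of the 12937 genes tested. Of 10 tested neural crest markers engR raised foxd3, from 32.8 ± 20.3 to 861 ± 203 (SD, n = 2 each, limma adjusted p = 0.0365). The summed level of that list overlapped, at 4601.9 and 3200.34 with engR and 5800.99 and 3019.16 with noggin and RA. The median log2 difference of the 10 was 0.095, against 0.028 over all genes. Of 12 tested excitatory and sensory markers engR raised 4, PIEZO2, isl2, tlx3 and DRGX, and prdm12 raised isl2, where 0.147% of all genes were called higher, or 2 genes with the block, where 0.935% were called. The part of these cells in the sst level was not tested.

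Markers of cholinergic and autonomic cells were set beside vip. Of 9 tested autonomic and visceral markers, engR raised hmx3 and hmx2 and lowered phox2a, from 42.5 ± 7.27 to 4.68 ± 5.17 normalized reads (SD, n = 2 each, limma adjusted p = 0.049), where 2.41% of all genes were called higher and 1.02% lower. With prdm12, where 0.162% of all genes were called by limma and 0.935% with the block, 0 were called by limma or edgeR, against 6 at an unadjusted p under 0.05, 5 by DESeq2 and 1 with the block. Of the 12937 genes tested, 828 were under that p and DESeq2 called 250. The vesicular acetylcholine transporter gene SLC18A3 held 491.07 and 824.85 with noggin and RA, 31.41 and 138.77 with prdm12 and 196.05 and 467.79 with engR. In the VP16 libraries it held 103.62 and 767.75. Its prdm12 and engR libraries and VP16 replicate 1 were lower than both noggin and RA libraries, as for vip. Other members of the list ran unlike vip without being called. The noradrenergic factor gene phox2a held 444.41 and 398.6 with VP16 against 37.4 and 47.68 with noggin and RA (limma adjusted p = 0.355). The gene ddc, which encodes an enzyme of monoamine synthesis, held 27.63 and 21.6 with VP16 against 4.07 and 2.51 (limma adjusted p = 0.406). The co-receptor gene gfra3 held 354.73 and 496.42 with prdm12 against 140.65 and 154.76 (limma adjusted p = 0.334). The part of such cells in the vip level was not tested.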

How the data were processed

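Libraries of poly-A RNA were made with an unstranded kit, per the labels' protocols. Per the submitters' processing notes, HOMER, edgeR, Bowtie and Bowtie2 were used, for steps and on a genome build not given in the sources used here. Expression values were deposited by the authors as a normalized signal per gene. In every library 100% of them were a whole number of reads times 1 factor per library, to within 0.05 of a read, so reads were recovered. Of 19926 lines, 5 are counters that name no gene and were left out; they held between 23.8% and 44.0% of the tallied records as not unique and between 7.53% and 11.1% as in no feature. Genes are Xenopus tropicalis models, so homeologous copies were taken to share a line. The peak lists lie on scaffolds of a build for which no gene coordinates were used, and were not analysed here.

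Genes were tested with limma-trend (limma 3.58.1, R 4.3.3) on log2(value + 1), over the 12937 genes whose mean was 10 or more. It used all 10 libraries with group as the only term (5 residual and 3.17 prior degrees of freedom), was two-sided and was adjusted by Benjamini-Hochberg within each of 7 comparisons. The design had foreseen count tests for raw counts; since the values are normalized, edgeR 4.0.16 and DESeq2 1.42.0 were run on recovered reads as alternatives. A gene was called at an adjusted p under 0.05. Against noggin and RA, 828 genes with prdm12, 868 with VP16 and 1983 with engR had an unadjusted limma p under 0.05. The fit was run on simulated counts with changes set only in engR and no replicate effect. That run checks the code and does not measure the error rate in these libraries. Counting intervals are exact at 95% and cover counting error only. No label states that replicates are from separate clutches, so the p-values reflect only how far these libraries spread, which may be technical. Wild-type columns carry a code and were matched because every other column names its construct.

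The members and the 13 gene lists were chosen with earlier results of these data known. Genes named were sst and vip, the 5 most alike over 10 and over 8 libraries, 3 neighbours on each side, up to 4 called members of each list per comparison and all receptor genes; others were chosen after their values were seen. Differences between replicates 1 and 2 correlated at 0.222 to 0.791 across genes in all 10 pairs of groups, so the numbers were taken to pair the libraries. The main fit, set beforehand, leaves this pairing out. The replicate block uses it and called more genes in all 7 comparisons, so a gene not called in the main fit can be called with the block. Alternatives were other pseudocounts, filters and scalings, the count tools, the replicate block and each library left out.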

Additional observations from a re-analysis of the deposited data

How the results depend on the processing

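No sst or vip difference from noggin and RA changed its direction under any of the settings tried. The vip difference of noggin and RA from wild type, 6.70 on the log2 scale, was 5.64 with a pseudocount of 4 and 5.91 with quantile normalization, and leaving out 1 library gave 6.30 to 7.10. That of sst was -4.28 to -2.33 with 1 library left out. The vip difference of VP16 from noggin and RA was -3.65 to -1.91 with 1 library left out, and the vip difference of engR from VP16, -0.41, was 0.46 without VP16 replicate 2 and -1.28 without VP16 replicate 1. Neuropeptide precursors called between noggin and RA and wild type were 7, 4 with a mean of at least 50 and 4 to 7 with 1 library left out. Those called with prdm12 were 0 to 1 with 1 library left out. Those called with VP16 were 1 with DESeq2, 1 with the replicate block and 0 to 2 with 1 library left out. Those called with engR were 1 with a mean of at least 50, 6 with DESeq2, 6 with the replicate block and 0 to 2 with 1 library left out. Processing genes called with prdm12 were 1 with DESeq2. With VP16 they were 0 to 5 with 1 library left out. With engR they were 3 with DESeq2, 6 with the replicate block and 0 to 1 with 1 library left out. Of all genes, those called between prdm12 and noggin and RA were 21, 45 with a pseudocount of 4, 250 with DESeq2, 121 with the replicate block and 0 to 33 with 1 library left out. For VP16 against noggin and RA they were 0, 2 with quantile normalization, 127 with DESeq2, 44 with the block and 0 to 197 with 1 left out, the highest without VP16 replicate 2. For engR against noggin and RA they were 444, 1169 with DESeq2, 1414 with the block and 4 to 485 with 1 left out. For VP16 against prdm12 they were 500, 1310, 2125 and 58 to 858. For engR against prdm12 they were 0, 179, 13 and 0 to 0. For engR against VP16 they were 1567, 2413, 3770 and 326 to 1664. Leaving out engR replicate 1 for the marker and receptor lists was added after the data were seen, and 0 of their genes were then called between engR and noggin and RA. The cause was not tested. Quantile normalization moved the median of all genes to -0.126 for engR against noggin and RA, -0.2 for engR against VP16 and 0.143 for VP16 against prdm12. Depth limits the low groups, with 3 vip reads in wild type and 11 sst reads with VP16.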
